A study of Mus musculus with 4 samples.

Results

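Late haemoglobin-rich erythroblasts are the nucleated red cell precursors in which adult globin transcripts fill much of the messenger RNA. Here they were the cells of mouse bone marrow in which the 4 adult globin genes Hba-a1, Hba-a2, Hbb-bs and Hbb-bt together held at least 40% of all unique molecular identifiers (UMIs, tags that each mark 1 captured RNA molecule). A cell also needed at least 500 detected genes, at most 10% mitochondrial UMIs, no UMI of the endothelial gene Cdh5 or the leukocyte gene Ptprc, and fewer than 20 UMIs of the stromal gene Cxcl12. This gave 2699 cells of 25475 cell barcodes in all. The irradiated Vegfc-deleted library held 225 of them, the irradiated control library 385, the non-irradiated Vegfc-deleted library 1017 and the non-irradiated control library 1072. Because the cells were chosen on their globin share, that share is given below as a description.

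Erythroblasts divide while they load haemoglobin, a protein of alpha and beta globin chains that each hold a haem group with an iron atom. They then leave the cell cycle, clear organelles and most other proteins, condense the nucleus and expel it to become reticulocytes. Erythropoietin, a hormone made in the kidney, acts through the receptor Epor and the kinase Jak2 to keep erythroblasts alive, and it switches on feedback and survival genes such as Cish and Pim1. The erythroblast hormone erythroferrone (Erfe) acts on the liver to lower hepcidin, which frees iron for haem.

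The study sequenced single cells from tibial marrow of C57Bl/6JCrl mice as 4 libraries, so that each genotype was measured with and without irradiation. Both genotypes carried floxed alleles of Vegfc, a secreted growth factor of vessels. Vegfc-deleted mice (Rosa26-CreERT2; Vegfc flox/flox) also carried a Cre recombinase that tamoxifen activates, driven from the widely expressed Rosa26 locus and so not limited to 1 cell type, and control mice (Vegfc flox/flox) had no Cre. In 1 place the labels give 5 intragastric tamoxifen doses to both genotypes at 7 to 8 weeks of age, and in another they name tamoxifen for all samples but the irradiated Vegfc-deleted one. Whole-body irradiation with 4 Gy followed 2 weeks later in the irradiated mice, and their marrow was taken 7 days after that. The irradiated libraries each pooled 2 mice and the non-irradiated libraries each pooled 3, although the labels elsewhere count 3 irradiated mice per genotype. Marrow was digested with enzymes and depleted of red cells, and the sort kept living cells that stained for neither lineage markers nor CD45 nor Ter119. Ter119 marks erythroid cells from the middle stages on, so the cells described here are those that this sort let through, and their number is not that of the marrow. With 1 library per group no difference has a replicate check, and none is given a p-value. All intervals are 95% intervals for counting error only.

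The 4 libraries held between 54462123 and 77284922 UMIs. Of their barcodes, 13 to 24 were found in any 2 libraries, except 117 in both non-irradiated ones. Members that shared a barcode with another library numbered 2, 3, 5 and 6 (irradiated Vegfc-deleted, irradiated control, non-irradiated Vegfc-deleted, non-irradiated control). Vegfc, which erythroblasts hardly express, gave 0, 2, 0 and 7 UMIs in the members in the same order and so does not check the genotype there. In the other filtered barcodes its level, per 1000000 UMIs outside globin (CPM), was 0.649 in the irradiated Vegfc-deleted library and 20.6 in the irradiated control library, and 2.33 in the non-irradiated Vegfc-deleted library and 43.4 in the non-irradiated control library. The genotype labels and Vegfc levels thus point the same way in both states.

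The member cells carried the defining markers of late erythroblasts. Levels are in CPM outside the 4 adult globin genes, since globin would otherwise dilute every other gene by an amount that differs between libraries. Alas2, the erythroid enzyme that starts haem synthesis, was at 3710 CPM in the irradiated Vegfc-deleted, 4909 in the irradiated control, 4632 in the non-irradiated Vegfc-deleted and 4788 in the non-irradiated control members. Non-erythroid cells of the same libraries held 1.08, 3.24, 14.8 and 31.0 CPM of Alas2. Slc4a1, the anion exchanger band 3 of the red cell membrane, was at 9073, 11062, 8556 and 8962 CPM in the members in that order. Bpgm, which makes the 2,3-bisphosphoglycerate that lowers the oxygen affinity of haemoglobin, was at 628, 1193, 2166 and 2567 CPM. All 3 markers were above the level in erythroid cells with 10 to under 40% globin in every library. The proliferation gene Mki67 was still at 6156, 6494, 5485 and 5066 CPM, so the word late holds for the globin content and not for the absence of cell cycle transcripts.

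Member cells were a smaller part of both irradiated libraries than of the non-irradiated ones. They made up 5.31% (exact interval 4.65 to 6.03%) of the 4239 filtered barcodes of the irradiated Vegfc-deleted library and 9.69% (8.78 to 10.7%) of the 3975 of the irradiated control library. In the non-irradiated Vegfc-deleted library they made up 18.4% (17.4 to 19.4%) of 5537 barcodes, and in the non-irradiated control library 19.9% (18.9 to 21.0%) of 5383. The share was 3.46-fold lower with irradiation in Vegfc-deleted mice (3.01 to 3.98) and 2.06-fold lower in controls (1.84 to 2.29). In Vegfc-deleted mice it was 1.83-fold below that of controls after irradiation (1.56 to 2.14) and 1.08-fold below it without irradiation (1.00 to 1.17). These shares describe a fraction depleted of red cells and of Ter119+ cells, and a share also moves when other cell types in the sort become more or less common. Among only the barcodes with at least 10% globin the order was the opposite. There the members made up 79.5% of 283 barcodes in the irradiated Vegfc-deleted library and 79.7% of 483 in the irradiated control library, against 58.3% of 1746 in the non-irradiated Vegfc-deleted and 56.0% of 1914 in the non-irradiated control library. Thus the erythroid cells below 40% globin were fewer still in the irradiated libraries.

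**Figure D1:**
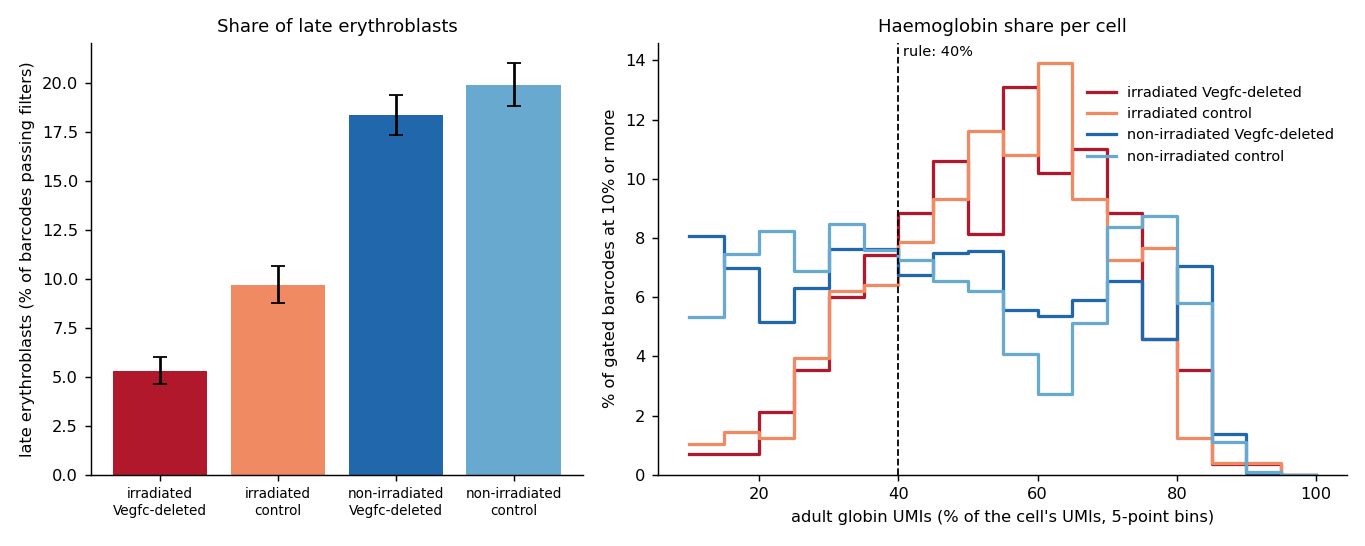
Left, share of filtered barcodes that were late haemoglobin-rich erythroblasts in each library (percent), with exact 95% binomial intervals for counting error, for 1 library per group, and right, percent of gated barcodes with 10% or more globin in bins of 5 points of the globin share, with the 40% rule dashed. Both irradiated libraries, at 5.31% and 9.69%, lie below both non-irradiated ones, at 18.4% and 19.9%, and in the histogram they hold fewer barcodes below 40%.

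Within the members the globin share, which chose them, had medians of 59.6% in the irradiated Vegfc-deleted, 60.1% in the irradiated control, 62.0% in the non-irradiated Vegfc-deleted and 66.7% in the non-irradiated control library. Cells with at least 80% globin were 5.33% and 2.60% of the members in the irradiated Vegfc-deleted and irradiated control libraries, against 14.6% and 12.5% in the non-irradiated Vegfc-deleted and non-irradiated control libraries. The irradiated members also had a higher median of UMIs per cell. It was 7427 in the Vegfc-deleted and 8777 in the control library, against 5964 and 6246.5 UMIs in the non-irradiated Vegfc-deleted and control libraries. The upper quartile went both ways. In Vegfc-deleted members it was 10312 UMIs with and 12499 without irradiation, and in controls 12656 with and 8527 without it. Over all filtered barcodes the medians were likewise higher with irradiation, at 10073 and 10003 UMIs in the Vegfc-deleted and control libraries against 8091 and 7881 in the non-irradiated ones. RNA per cell and library depth therefore cannot be told apart. The median number of genes in the members was 1119 and 1235 in the irradiated Vegfc-deleted and control libraries and 818 and 844.5 in the non-irradiated ones. Mitochondrial UMIs had medians of 2.18% and 2.02% in the irradiated Vegfc-deleted and control members and 1.12% and 1.45% in the non-irradiated Vegfc-deleted and control members. The threshold of 40% cut a continuous range. In the non-irradiated control library the 48 cells just inside it (40 to under 42%) had 102 CPM of Bpgm and 2315 CPM of Alas2, and the 60 just outside it (38 to under 40%) had 94.8 CPM and 2055 CPM. In the irradiated control library the 15 cells just inside had 84.3 CPM of Bpgm and 2497 CPM of Alas2, and the 15 just outside had 18.3 CPM and 2018 CPM. The filter of 500 genes also removed cells of high globin content. Barcodes with at least 40% globin but fewer than 500 genes numbered 70 in the irradiated Vegfc-deleted, 55 in the irradiated control, 459 in the non-irradiated Vegfc-deleted and 358 in the non-irradiated control library.

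Globin is encoded in the mouse by gene pairs. Hba-a1 and Hba-a2 make alpha chains and lie on chromosome 11, and in C57BL/6 mice Hbb-bs and Hbb-bt make the adult beta chains and lie on chromosome 7. The promoters of Hba-a1, Hbb-bs and Hbb-bt are shown because the results below turn on the beta pair, and the alpha pair serves as its contrast. Each line holds the 250 bases before the transcription start in RefSeq on GRCm38.p6, 5′ to 3′ on the strand of the gene. Capitals mark, on either strand, the letters GATAA, which GATA factors read, the letters CACCC, which Klf factors read, and the letters CCAAT, which nuclear factor Y reads.
Hba-a1, chr11:32283422-32283671, plus strand: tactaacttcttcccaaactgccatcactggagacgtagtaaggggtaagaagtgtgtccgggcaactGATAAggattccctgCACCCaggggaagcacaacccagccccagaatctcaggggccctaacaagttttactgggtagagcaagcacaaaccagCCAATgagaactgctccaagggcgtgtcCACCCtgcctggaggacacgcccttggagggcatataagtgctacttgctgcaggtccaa
Hbb-bs, chr7:103827929-103828178, minus strand: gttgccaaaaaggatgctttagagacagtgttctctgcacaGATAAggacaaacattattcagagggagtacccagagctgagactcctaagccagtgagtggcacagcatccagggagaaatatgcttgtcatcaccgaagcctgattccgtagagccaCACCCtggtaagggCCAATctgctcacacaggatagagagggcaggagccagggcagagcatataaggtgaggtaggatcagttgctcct
Hbb-bt, chr7:103813924-103814173, minus strand: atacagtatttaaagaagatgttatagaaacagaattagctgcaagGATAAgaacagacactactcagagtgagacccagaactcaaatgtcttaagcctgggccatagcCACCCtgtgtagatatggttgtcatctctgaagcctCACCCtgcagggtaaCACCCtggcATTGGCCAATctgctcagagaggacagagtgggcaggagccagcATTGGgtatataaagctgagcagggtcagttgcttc
The first of these motifs stood once in each promoter. The second had 2 matches in Hba-a1, 1 in Hbb-bs and 3 in Hbb-bt, and the third 1, 1 and 3, where 2 of those in Hbb-bt stand side by side and their capitals run together. Of 32851 RefSeq promoters of this length, 22.6% hold the GATA letters, 52% the Klf letters and 33.8% the third, so a match is a description and not a site. The Hba-a1 and Hba-a2 promoters were 97.6% identical over their alignment, whereas those of Hbb-bs and Hbb-bt were 69.3% identical.

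The beta pair was used in a different proportion in the irradiated libraries. Per 1 Hbb-bt UMI, members held 2.17 Hbb-bs UMIs in the irradiated Vegfc-deleted library and 3.29 in the non-irradiated Vegfc-deleted library. In controls they held 2.16 with irradiation and 3.44 without it. The ratio was therefore lower with irradiation by 0.60 on the log2 scale in Vegfc-deleted mice (log2 ratio -0.60, interval -0.61 to -0.60) and by 0.67 in controls (log2 ratio -0.67, -0.67 to -0.66), while the genotypes lay close together within each state.

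Per cell the shift ran through most of the population. The middle 90% of cells held ratios of 1.73 to 2.97 in the irradiated Vegfc-deleted and 1.60 to 3.14 in the irradiated control library. Those of the non-irradiated Vegfc-deleted library held 2.41 to 5 and those of the non-irradiated control library 2.62 to 5.30. So the ranges overlapped only between 2.41 and 2.97 in Vegfc-deleted mice and between 2.62 and 3.14 in controls. The lower ratio was present in each globin band, with log2 ratios from -0.48 to -0.69 in Vegfc-deleted mice and from -0.61 to -0.74 in controls, so it was there at matched globin content. Erythroid cells with 10 to under 40% globin had 1.97 and 1.94 in the irradiated Vegfc-deleted and control libraries, against 2.39 and 2.59 in the non-irradiated Vegfc-deleted and control libraries. The globin RNA counted in non-erythroid cells had 1.62 and 1.81 against 3.33 and 3.27 in the same order, and its source was not tested.

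The alpha pair changed less between libraries and more with globin content. Hba-a1 over Hba-a2 was 1.43 in the irradiated Vegfc-deleted, 1.31 in the irradiated control, 1.49 in the non-irradiated Vegfc-deleted and 1.52 in the non-irradiated control library. In every library it was lower in each higher globin band, ending at 1.2, 1.10, 1.25 and 1.27 in cells with at least 80% globin. Alpha over beta UMIs was 0.659, 0.714, 0.647 and 0.655 in the order of the libraries above. These are ratios of 3′ tags, not corrected for transcript length, and the members of a pair share 89.6% (Hba) and 86.1% (Hbb) of their last 300 transcript bases, so how reads were split within a pair is uncertain. The counting was the same in all libraries.

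**Figure D2:**
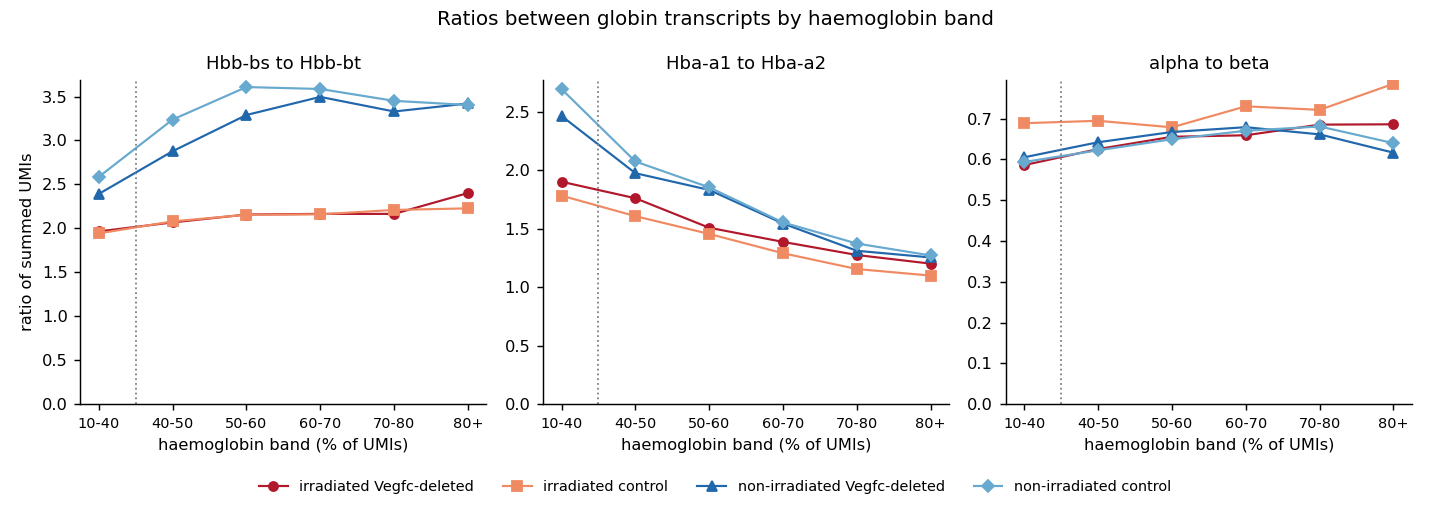
Ratio of summed UMIs of Hbb-bs to Hbb-bt, Hba-a1 to Hba-a2 and alpha to beta globin (y axes) by globin band in percent of UMIs (x axes), 1 line per library and 1 library per group, with members right of the dotted line. For Hbb-bs over Hbb-bt the irradiated libraries (2.17 and 2.16 over all members) lie below the non-irradiated ones (3.29 and 3.44), whereas Hba-a1 over Hba-a2 is lower in each higher band in all libraries.

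Across globin content the members formed a graded series of maturation. Bpgm was at 76.6, 146, 111 and 134 CPM in cells with 40 to under 50% globin and at 7166, 7990, 10951 and 12531 CPM in those with at least 80%, in the order irradiated Vegfc-deleted, irradiated control, non-irradiated Vegfc-deleted, non-irradiated control. Bnip3l, a receptor by which mitochondria are removed, was at 408, 596, 404 and 488 CPM in the lowest of these bands and at 4463, 2810, 6009 and 5628 CPM in the highest. Mki67 was highest at 40 to under 60% globin and at 1065, 982, 712 and 541 CPM in the cells with at least 80%. Since the bands were cut on globin, their order is a description and got no test.

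Beside the cells with 10 to under 40% globin, 8 genes were ranked highest in the members by the ratio nearest 0 over the 4 libraries. Xpo7, a nuclear transport receptor needed for chromatin condensation in erythroblasts, whose gene overlaps Npm2, was at 1643, 2964, 2478 and 2832 CPM in the members, against 53.6, 89.4, 47.6 and 42 CPM below 40% globin. Tmcc2 was at 2918, 4580, 3914 and 5254 CPM in the members against 175, 471, 169 and 230 CPM. The ubiquitin-conjugating enzyme Ube2h, the ribosome-associated nuclease Slfn14, the solute channel Aqp9, Tcp11l2 and Tbcel completed the 8 with Bpgm. The 8 genes ranked lowest in the members were Dut and Paics of nucleotide synthesis, Nop56 of ribosome assembly, the mitochondrial ribosome protein Mrps28, Phb2, the chaperonins Cct2 and Hspe1, and Stard10. Dut was at 102, 53.1, 164 and 134 CPM in the members and at 342, 256, 689 and 597 CPM below 40% globin.

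**Figure D3:**
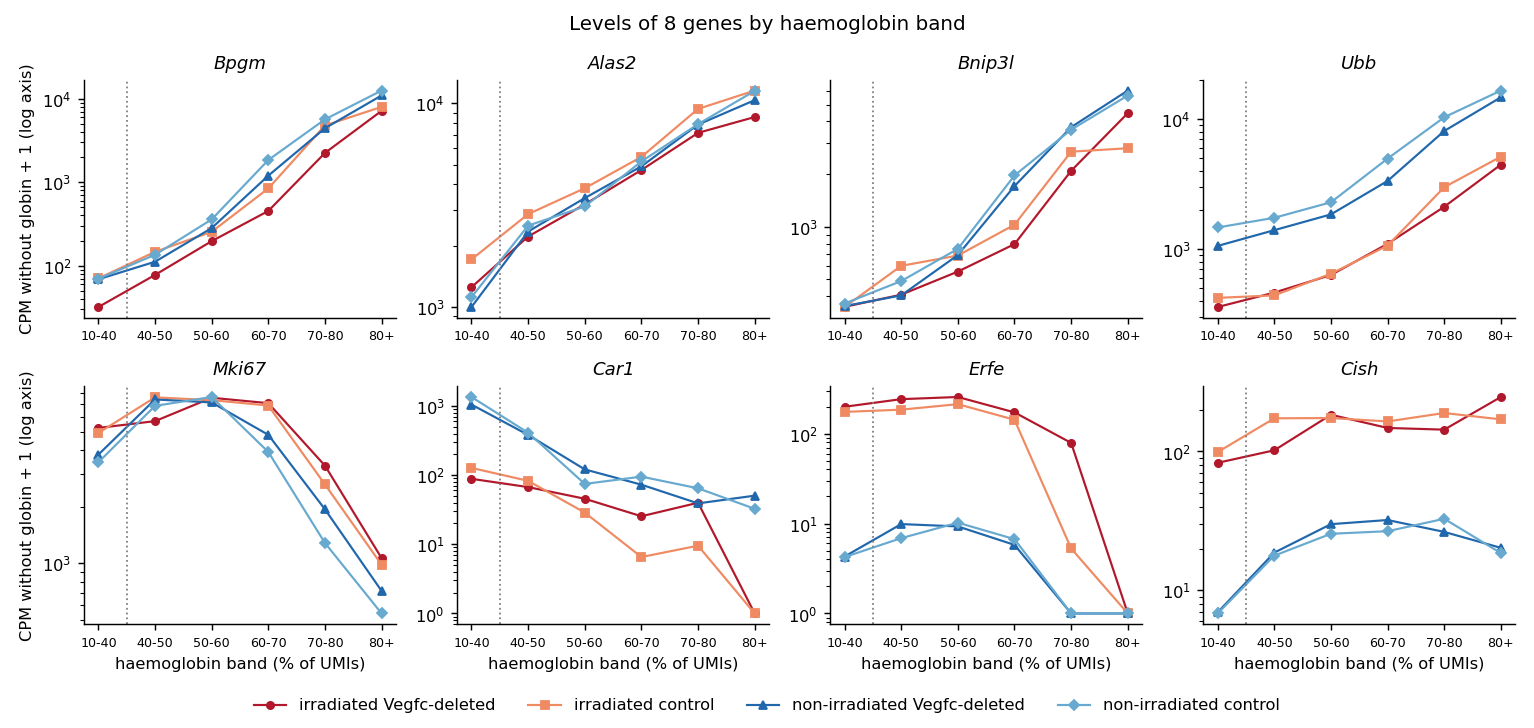
Levels of Bpgm, Alas2, Bnip3l, Ubb, Mki67, Car1, Erfe and Cish in CPM plus 1 (log axis) by globin band in percent of UMIs, 1 line per library and 1 library per group, with members right of the dotted line. Bpgm, Alas2, Bnip3l and Ubb are higher in each higher band, Erfe has no UMI at 80% globin or more in any library, and the irradiated lines lie apart from the non-irradiated ones for Ubb, Car1, Erfe and Cish in most bands.

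Irradiation came with the larger differences in gene level. A gene was counted as higher or lower where its CPM differed at least 1.5-fold and it had at least 30 UMIs in a library of the pair. No interval was used for this, so counting error alone can bring a gene with few UMIs past the fold. The irradiated Vegfc-deleted members held 776613 UMIs outside globin and the non-irradiated Vegfc-deleted members 3029301. In Vegfc-deleted mice 906 of 5338 genes were higher (17.0%) and 1075 lower (20.1%) in irradiated than in non-irradiated members. In controls 972 of 5308 were higher (18.3%) and 853 lower (16.1%). These 2 comparisons share no library. Of 5063 genes measured in both, 487 (9.62%) were higher in both and 456 (9.01%) lower in both. The genes higher in both made up 53.8% of the Vegfc-deleted and 50.1% of the control list, those lower in both 42.4% and 53.5%, and 9 and 20 genes were called in opposite directions. The balance of directions depends on the scale. Of the called genes, 45.7% were higher in Vegfc-deleted mice and 53.3% in controls, but 62.5% and 65.8% when scaled to all UMIs and 31.8% and 39.0% with edgeR's TMM factors. Over all genes the median log2 ratio was 0.05 in Vegfc-deleted mice and 0.11 in controls, and it was 0.22 and 0.23 when scaled to all UMIs and -0.08 and -0.03 with TMM factors. Irradiation, sequencing run and pool cannot be told apart with 1 library per group.

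Erythroferrone was among the 10 genes highest with irradiation in both genotypes. Erfe (chromosome 1, 91366430 to 91374217 on GRCm38) was at 206 CPM with irradiation and 5.94 CPM without it in Vegfc-deleted members, and at 152 CPM with and 4.93 CPM without it in control members. The log2 ratios were 5.08 (4.41 to 5.91) and 4.90 (4.19 to 5.80). After each cell was thinned to 1000 UMIs outside globin, 18.4% of irradiated Vegfc-deleted, 10.2% of irradiated control, 0.804% of non-irradiated Vegfc-deleted and 0.747% of non-irradiated control members held an Erfe UMI. Without thinning these shares were 37.3%, 28.6%, 1.57% and 1.4%, at medians of 2703, 3438, 2128 and 2168 UMIs outside globin. Of non-erythroid cells, deeper at medians of 10142, 10075, 7430.5 and 7779 such UMIs before thinning, none of 3713 in the irradiated Vegfc-deleted library (up to 0.0808%), 0.0603% in the irradiated control, none of 2992 in the non-irradiated Vegfc-deleted (up to 0.100%) and 0.0684% in the non-irradiated control library held one. In each library a larger share of members than of non-erythroid cells thus held an Erfe UMI, and the part of free RNA was not tested.

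Among the members Erfe belonged to the less mature ones. In the irradiated Vegfc-deleted library it was at 240, 254, 171 and 77.8 CPM in the bands from 40, 50, 60 and 70% globin, and in the irradiated control library at 183, 211, 141 and 4.28 CPM. No Erfe UMI was found at 80% globin or more, where the few cells limit the level only to 123 CPM in the irradiated Vegfc-deleted and 102 CPM in the irradiated control library.

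Of the erythropoietin list, Cish, Pim1 and Tfr2 were also higher in both genotypes. Cish, a feedback inhibitor of the receptor that Stat5 switches on, was at 143 CPM with and 23.4 CPM without irradiation in Vegfc-deleted members and at 173 CPM with and 22.3 CPM without it in controls. Its log2 ratios were 2.60 (2.17 to 3.06) and 2.94 (2.56 to 3.36), and unlike Erfe it stayed between 101 and 246 CPM over all bands of the irradiated Vegfc-deleted and between 164 and 188 CPM over those of the irradiated control library. Pim1, a survival kinase, was at 1310 CPM with and 866 CPM without irradiation in Vegfc-deleted members and at 1971 CPM with and 968 CPM without it in controls. Tfr2, a receptor partner that senses transferrin iron, was at 42.5 CPM with and 14.2 without irradiation in Vegfc-deleted members and at 37.5 with and 15.4 without it in controls. The receptor itself did not share this. Epor was at 460 and 427 CPM with and without irradiation in Vegfc-deleted members and at 333 and 440 CPM in controls. Of the 9 genes of this list with enough UMIs, 5 were higher and 2 lower in Vegfc-deleted mice, beside 17.0% and 20.1% of all genes. In controls 4 were higher and none lower, beside 18.3% and 16.1% of all genes. The list medians were 0.68 and 0.01, beside 0.05 and 0.11 for all genes. Bcl2l1, the survival factor of late erythroblasts, was lower with irradiation in Vegfc-deleted members (353 against 544 CPM), and level in controls (683 against 665 CPM), but among cells with 40 to under 60% globin its log2 ratio in Vegfc-deleted mice was 0.38.

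The other genes at the top were mainly of metabolism and membrane receptors. Gmpr, which converts guanine to inosine nucleotides, was at 274 CPM with and 1.32 CPM without irradiation in Vegfc-deleted members and at 189 CPM with and 2.30 CPM without it in controls. Hadh, a fatty acid oxidation enzyme of mitochondria, was at 76.0 CPM with and 0.66 CPM without irradiation in Vegfc-deleted members and at 65.4 CPM with and 0.66 CPM without it in controls. Non-erythroid cells held Hadh at 29.2 CPM in the irradiated Vegfc-deleted, 47.9 in the irradiated control, 40.7 in the non-irradiated Vegfc-deleted and 47.9 in the non-irradiated control library, so the non-irradiated members stood far below these cells. Erythroid cells with 10 to under 40% globin shared this, at 56.5, 71.0, 3.04 and 2.50 CPM of Hadh in that order. Gmpr was in them at 209, 148, 2.28 and 1.48 CPM. Tnfrsf13c, the BAFF receptor best known from B cells, was at 125 CPM with and 1.65 CPM without irradiation in Vegfc-deleted members and at 182 CPM with and 5.59 CPM without it in controls. Its thinned share in members was 8.97% and 10.4% in the irradiated Vegfc-deleted and control libraries, against 0.101% and 0.280% in the non-irradiated ones. In non-erythroid cells the share was 0.215% and 0.784% against 2.67% and 2.40%, so the member signal ran opposite to that of the non-erythroid cells. Erythroid cells with 10 to under 40% globin went with the members, at 127 and 182 CPM of Tnfrsf13c in the irradiated Vegfc-deleted and control libraries. In the non-irradiated ones they held 3.17 and 12.0 CPM. Ankrd44, the lysosomal enzyme Gusb, Tnfrsf21, the mitochondrial Acadsb, the channel subunit Lrrc8b and the neighbouring non-coding Gm32051 completed the 10. Lrrc8b and Gm32051 are neighbours on the same strand of chromosome 5, so reads of one could be counted for the other.

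**Figure D4:**
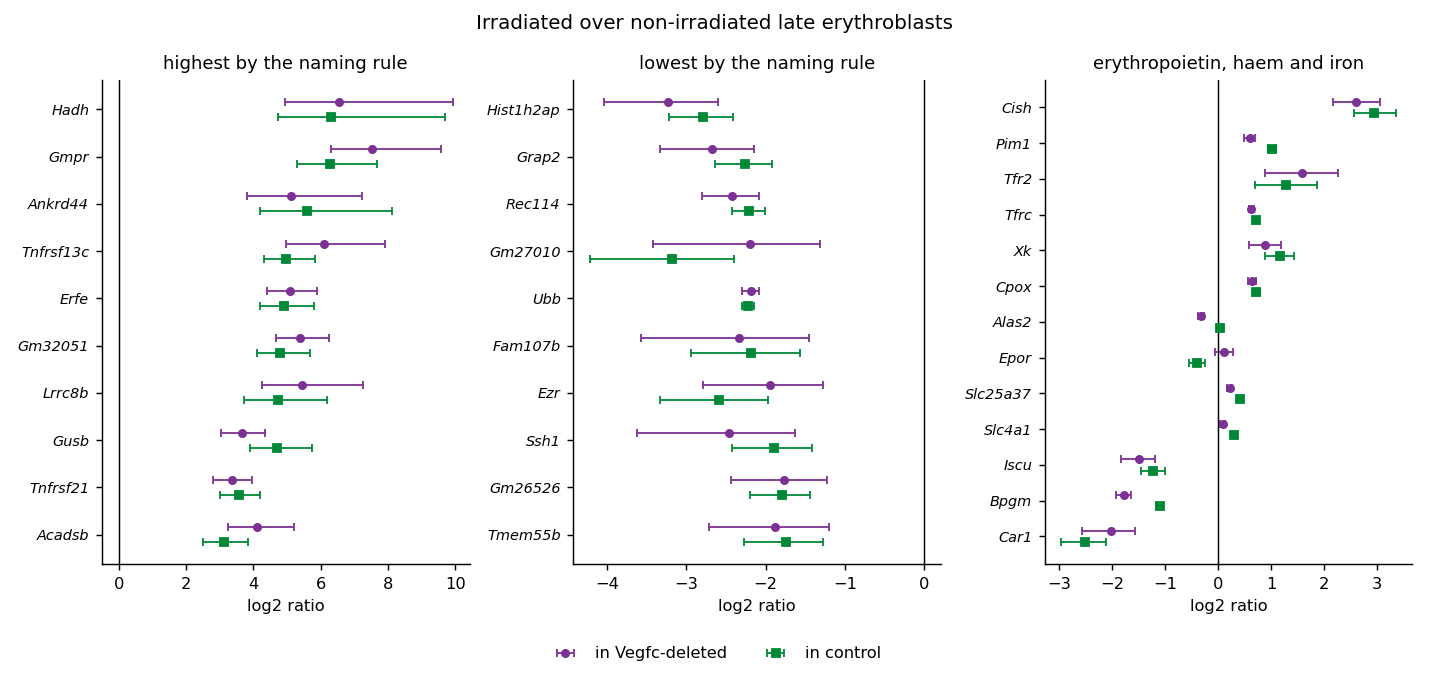
Log2 ratio of irradiated over non-irradiated members for the 10 highest, the 10 lowest and 13 listed erythropoietin, haem, iron and red cell genes, in Vegfc-deleted and control mice, with exact 95% intervals for counting error and 1 library per group. The naming rule took only genes on the same side of 0 in both genotypes, so that agreement is not a result. By the ratio nearer 0, Hadh (6.54 and 6.32) stands first of the highest and Hist1h2ap (-3.23 and -2.79) first of the lowest.

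Single iron and haem genes differed in both directions. Tfrc, the transferrin receptor that brings in iron, was at 5004 CPM with and 3231 CPM without irradiation in Vegfc-deleted members and at 5061 CPM with and 3094 CPM without it in controls. Cpox, a late enzyme of the haem pathway, was at 2597 CPM with and 1657 CPM without irradiation in Vegfc-deleted members and at 2456 CPM with and 1486 CPM without it in controls. These were the abundant genes of their lists above 1.5-fold in both genotypes. Alas2 and Fech, which start and end the haem pathway, differed by at most 0.32 on the log2 scale. Of 15 haem synthesis genes, 2 were higher and none lower in Vegfc-deleted mice, beside 17.0% and 20.1% of all genes. In controls 1 was higher and 1 lower, beside 18.3% and 16.1% of all genes. Iscu, the scaffold on which iron-sulphur clusters form, was lower, at 112 CPM with and 317 CPM without irradiation in Vegfc-deleted members and at 137 with and 321 without it in controls. Snx3, which recycles the transferrin receptor, was at 201 CPM with and 340 CPM without irradiation in Vegfc-deleted members and at 183 with and 310 without it in controls. Of 18 iron genes 3 were higher and 3 lower in each genotype, a share close to that of all genes.

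Single genes of red cell metabolism differed in both directions. Of its genes 8 of 22 were higher and 5 lower in Vegfc-deleted mice, beside 17.0% and 20.1% of all genes. In controls 7 of 24 were higher and 4 lower, beside 18.3% and 16.1% of all genes. The lower genes were thus near the shares of all genes in both. The redox enzymes Gsr and Sod1 were higher. Sod1 was at 265 CPM with and 164 CPM without irradiation in Vegfc-deleted members and at 410 CPM with and 130 CPM without it in controls. Gapdh, Hk1 and Ampd3 of glycolysis and nucleotide turnover were also higher in both, whereas the glycolytic Ldha and the detoxifying enzyme Hagh were lower in both, with log2 ratios of -1.24 and -0.88 in Vegfc-deleted mice and -0.78 and -1.08 in controls. Car1, an early red cell carbonic anhydrase, was lower, at 46.4 CPM with and 192 CPM without irradiation in Vegfc-deleted members and at 35.0 with and 202 without it in controls. It was already apart below 40% globin, at 87.5 and 126 CPM in the irradiated Vegfc-deleted and control libraries against 1048 and 1348 CPM in the non-irradiated Vegfc-deleted and control libraries. The abundant Gpx1, Prdx2 and Car2 differed by at most 0.40 on the log2 scale.

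Of 27 membrane genes 1 was higher and 1 lower in Vegfc-deleted mice, beside 17.0% and 20.1% of all genes. In controls 4 were higher and 3 lower, near the 18.3% and 16.1% of all genes. Xk, a membrane transporter-like protein, was higher in both, at 173 CPM with and 93.1 CPM without irradiation in Vegfc-deleted members and at 153 with and 68.0 without it in controls. Aqp1, the water channel, was lower in both, at 1271 CPM with and 1937 CPM without irradiation in Vegfc-deleted members and at 1193 with and 2148 without it in controls. Among transcription factors Tal1 and Gfi1b were higher and Lmo2, Klf3 and Klf13 lower in both genotypes. Tal1 was at 792 CPM with and 499 CPM without irradiation in Vegfc-deleted members and at 876 with and 401 without it in controls. Klf1 itself, the master factor of adult globin, was at 572 and 580 CPM with and without irradiation in Vegfc-deleted members and at 547 and 607 CPM in controls.

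The most abundant gene among the 10 lowest was Ubb, which encodes ubiquitin, the tag for protein removal. Ubb (chromosome 11, 62551171 to 62553213) was at 932 CPM with and 4247 CPM without irradiation in Vegfc-deleted members and at 1121 CPM with and 5222 CPM without it in controls, with log2 ratios of -2.19 (-2.30 to -2.08) and -2.22 (-2.29 to -2.15). It was lower in every globin band. From 80% globin on it was at 4463 CPM with and 14751 CPM without irradiation in Vegfc-deleted members, and at 5146 with and 16622 without it in controls. Non-erythroid cells also held less, at 550 and 511 CPM in the irradiated Vegfc-deleted and control libraries against 1494 and 2028 CPM in the non-irradiated ones, so the difference was not particular to erythroblasts.

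The others were Hist1h2ap, Grap2, Rec114, Gm27010, Fam107b, Ezr, Ssh1, Gm26526 and Tmem55b. The histone gene Hist1h2ap was at 23.2 CPM with and 224 CPM without irradiation in Vegfc-deleted members and at 36.9 with and 258 without it in controls. It has many close copies and its counting is uncertain, and Gm27010 shares its strand and place with Dleu2 and Rec114 with Gm20620, so reads could be split. Rec114, known from meiosis, was at 88.9 CPM with and 478 CPM without irradiation in Vegfc-deleted members and at 135 with and 625 without it in controls.

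Differences in single organelle and protein clearance genes varied with globin content. Of 25 such genes 1 was higher and 12 lower in Vegfc-deleted mice, where 20.1% of all genes were lower. In controls 2 were higher and 5 lower, near the 16.1% of all genes that were lower there, with list medians of -0.37 and -0.24. Bnip3l was at 825 CPM with and 1754 CPM without irradiation in Vegfc-deleted members and at 1082 with and 1771 without it in controls. The autophagy genes Map1lc3b and Gabarapl2 and the ubiquitin ligase Trim58 were lower in both. Plek2, an actin regulator of enucleation, went the other way, at 176 CPM with and 50.2 CPM without irradiation in Vegfc-deleted members and at 150 with and 51.9 without it in controls. Among cells of 40 to under 60% globin the log2 ratio of Bnip3l was -0.12 in Vegfc-deleted mice and 0.15 in controls, that of Trim58 0.02 in controls, and the list median of controls 0.02. Bpgm behaved in the same way. Its log2 ratio was -1.78 in Vegfc-deleted mice and -1.11 in controls over all members, -0.45 and -0.09 at 40 to under 60% globin, and 0.53 in controls among cells with at least 1000 genes. In each band from 60% globin on, both Bnip3l and Bpgm were lower with irradiation in both genotypes. At 60 to under 70% globin Bnip3l was at 794 CPM with and 1707 CPM without irradiation in Vegfc-deleted members. In controls it was at 1026 with and 1963 without. Bpgm was there at 452 with and 1199 without irradiation in Vegfc-deleted members, and at 843 with and 1846 without in controls. Irradiated members at or above 80% globin were few (12 and 10 cells against 148 and 134), and the part of this makeup in the differences over all members was not tested beyond these values.

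Of 20 cell cycle genes of the G2 and M phases none was higher in either genotype. Those lower were 3 in Vegfc-deleted mice, no larger a share than the 20.1% of all genes, and 8 in controls, where 16.1% of all genes were lower, with medians of -0.32 and -0.42. Aurkb, a kinase of cell division, was at 128 CPM with and 221 CPM without irradiation in Vegfc-deleted members and at 139 with and 250 without it in controls. Mki67 itself was slightly higher over all members, with log2 ratios of 0.17 and 0.36. By globin band it went both ways. It was lower with irradiation at 40 to under 50% globin in Vegfc-deleted members, at 5699 CPM with and 7431 CPM without it. In controls it was lower at 50 to under 60% globin, at 7370 with and 7658 without irradiation. The remaining member bands of both genotypes had more Mki67 with irradiation. S phase genes were near level, with 1 of 19 higher and none lower in Vegfc-deleted mice and 2 lower in controls, smaller shares than those of all genes. Pcna was at 364 and 338 CPM with and without irradiation in Vegfc-deleted members and at 336 and 321 CPM in controls.

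Some targets of p53, the factor that DNA damage activates, were higher with irradiation. Of 10 targets 3 were higher and 4 lower in Vegfc-deleted mice, beside 17.0% and 20.1% of all genes. Of 11 in controls 6 were higher and 1 lower, beside 18.3% and 16.1% of all genes. The medians were 0.31 in Vegfc-deleted mice and 1.54 in controls, beside 0.05 and 0.11 for all genes. Cdkn1a, the p21 inhibitor of cell division, was at 126 CPM with and 9.90 CPM without irradiation in Vegfc-deleted members and at 273 CPM with and 8.54 CPM without it in controls. Few cells carried this. The 5 richest cells held 30.6% of its UMIs in the irradiated Vegfc-deleted and 46.6% in the irradiated control library, and the thinned share of members with a UMI was 8.97% and 8.62%, against 0.704% and 1.03% in the non-irradiated Vegfc-deleted and control libraries. Non-erythroid cells held Cdkn1a more widely, in 18.2%, 40%, 17.4% and 18.8% of cells in the order of the libraries, above the member shares of the same library, and the part of free RNA in the member shares was not tested. Ccng1 and Ei24 were higher in both genotypes and Btg2 was lower in both. The 5 richest cells held 60% of the 45 Ccng1 UMIs of the irradiated Vegfc-deleted members, 18 of them in 1 cell, and 50.5% of the 111 of the irradiated control members, 33 of them in 1 cell. Btg2 was at 650 CPM with and 1267 CPM without irradiation in Vegfc-deleted members and at 704 with and 1669 without it in controls.

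Stress and death genes gave small counts. Of the integrated stress response list none of 10 was higher and 3 were lower with irradiation in Vegfc-deleted mice, beside 17.0% and 20.1% of all genes. In controls 3 of 11 were higher and 2 lower, beside 18.3% and 16.1%, and Ddit3 was lower in both genotypes. Among those higher in controls, Hspa1b had 71 UMIs in irradiated members, 63 of them in 1 cell, and 7 UMIs in non-irradiated members. Ddit3, a stress factor, was at 94.0 CPM with and 193 CPM without irradiation in Vegfc-deleted members and at 112 with and 183 without it in controls. Of the apoptosis list none of 9 was higher and 4 were lower in Vegfc-deleted mice, and 2 of 8 were higher and 1 lower in controls, beside the same shares of all genes. Of the progenitor factors only 1 had enough UMIs. Among the minor globins Hbq1b was at 116 CPM with and 302 CPM without irradiation in Vegfc-deleted members and at 142 with and 276 without it in controls.

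Fewer genes differed between genotypes, and few in both states. After irradiation 383 of 4235 genes were higher (9.04%) and 507 lower (12.0%) in Vegfc-deleted than in control members, and without irradiation 373 of 5507 were higher (6.77%) and 194 lower (3.52%). Of 4159 genes measured in both states, 27 (0.649%) were higher in both and 31 (0.745%) lower in both. They made up 7.05% and 7.24% of the lists of higher genes and 6.11% and 16% of those of lower genes, and 2 and 20 genes were called in opposite directions. With TMM factors the share of called genes that were higher was 25.7% after irradiation, against 43.0% when scaled to UMIs outside globin, and 49.0% without irradiation, against 65.8%. The genotype comparisons use the same 4 libraries as the irradiation comparisons and are not independent of them.

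The genes named here were ranked by the ratio nearer 0 and need not reach 1.5-fold in both states. Among those with the higher level in Vegfc-deleted members, Mthfd2 stood first. This enzyme of the mitochondrial folate pathway was at 279 CPM in Vegfc-deleted and 143 CPM in control members after irradiation and at 167 CPM in Vegfc-deleted and 106 CPM in control members without it, with log2 ratios of 0.97 (0.69 to 1.24) and 0.66 (0.46 to 0.87). The linker histones Hist1h1a and Hist1h1e followed. Hist1h1e was at 578 CPM in Vegfc-deleted and 344 CPM in control members after irradiation and at 648 and 419 CPM in Vegfc-deleted and control members without it. The interferon-related genes Ifi27 and Rnf213 were also ranked here, Rnf213 at 1.42-fold after irradiation. Ifi27 was at 317 CPM in Vegfc-deleted and 203 CPM in control members after irradiation and at 431 and 286 CPM in Vegfc-deleted and control members without it. Rtn4, Josd1, Smarcc2 and Cep290 completed the 9 described here, of which Rtn4 (1.45-fold and 1.48-fold) and Smarcc2 (1.43-fold and 1.42-fold) stayed under 1.5-fold in both states and Josd1 (1.42-fold) did so without irradiation, with intervals that reach 0 after irradiation for Josd1 and Smarcc2 and a log2 ratio of -0.14 for Cep290 in irradiated members with at least 50% globin.

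The interferon list had 4 of 11 genes higher and 2 lower in Vegfc-deleted members after irradiation, beside 9.04% and 12.0% of all genes. Without irradiation 4 of 13 were higher and none lower, beside 6.77% and 3.52% of all genes. The medians were 0.43 after irradiation and 0.47 without it, beside 0.05 and 0.10 for all genes. Isg15, a ubiquitin-like protein induced by interferon, was at 3129 CPM in Vegfc-deleted and 1505 CPM in control members after irradiation and at 2067 and 1755 CPM in Vegfc-deleted and control members without it. Ifitm3 was at 144 CPM in Vegfc-deleted and 71.2 CPM in control members after irradiation and at 270 and 209 CPM in Vegfc-deleted and control members without it. The abundant Rsad2 ran the other way after irradiation, at 2631 CPM in Vegfc-deleted and 3179 CPM in control members, and was level without it. With irradiation 7 of 13 list genes were lower in Vegfc-deleted mice and 5 of 12 in controls, beside 20.1% and 16.1% of all genes. Irf7, Stat2, Ifitm3 and Xaf1 were lower in both.

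First among the genes lower in Vegfc-deleted members, by the ratio nearer 0, was Nfkbia, the inhibitor and rapid target of NF-kappa-B. Nfkbia (chromosome 12, 55489410 to 55492647) was at 55.4 CPM in Vegfc-deleted and 386 CPM in control members after irradiation and at 443 CPM in Vegfc-deleted and 1146 CPM in control members without it, with log2 ratios of -2.79 (-3.29 to -2.35) and -1.37 (-1.46 to -1.28). Tnfaip3, another feedback gene of that pathway, gave 1 UMI in irradiated Vegfc-deleted members, against 51.8 CPM in irradiated controls, and 33.7 CPM in Vegfc-deleted against 68.7 CPM in control members without irradiation. Bcl10, Tfe3, Jund, 4930523C07Rik, Tnfaip2, Atp5k, Setd5 and Reln were the other 8. Of these, Atp5k (1.48-fold) and Setd5 (1.47-fold) stayed under 1.5-fold after irradiation, and Tnfaip2 (1.49-fold) and Reln (1.47-fold) without it.

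Jund leads over to the immediate early genes, which respond fast to stimuli, tissue digestion included. All 11 with enough UMIs were lower in Vegfc-deleted members after irradiation, where 12.0% of all genes were lower. Without irradiation 7 of 13 were lower and none higher, beside 3.52% and 6.77% of all genes. The medians were -1.12 after irradiation and -0.69 without it. Fos was at 14.2 CPM in Vegfc-deleted and 72.5 CPM in control members after irradiation and at 91.4 and 145 CPM in Vegfc-deleted and control members without it. Jund was at 534 CPM in Vegfc-deleted and 974 CPM in control members after irradiation and at 1157 and 1942 CPM in Vegfc-deleted and control members without it. The same genes differed outside the erythroid line. Fos was at 696 CPM in Vegfc-deleted and 2005 CPM in control non-erythroid cells after irradiation, and at 2996 and 4236 CPM without it. Nfkbia was at 482 CPM in Vegfc-deleted and 921 CPM in control non-erythroid cells without irradiation, but at 150 and 163 CPM after it. How far handling of each sample or free RNA set these levels was not tested. With irradiation 9 of 13 immediate early genes were lower in Vegfc-deleted mice and 6 of 13 in controls, beside 20.1% and 16.1% of all genes. The medians were -1.90 and -0.995, and Ier3 was higher in both.

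**Figure D5:**
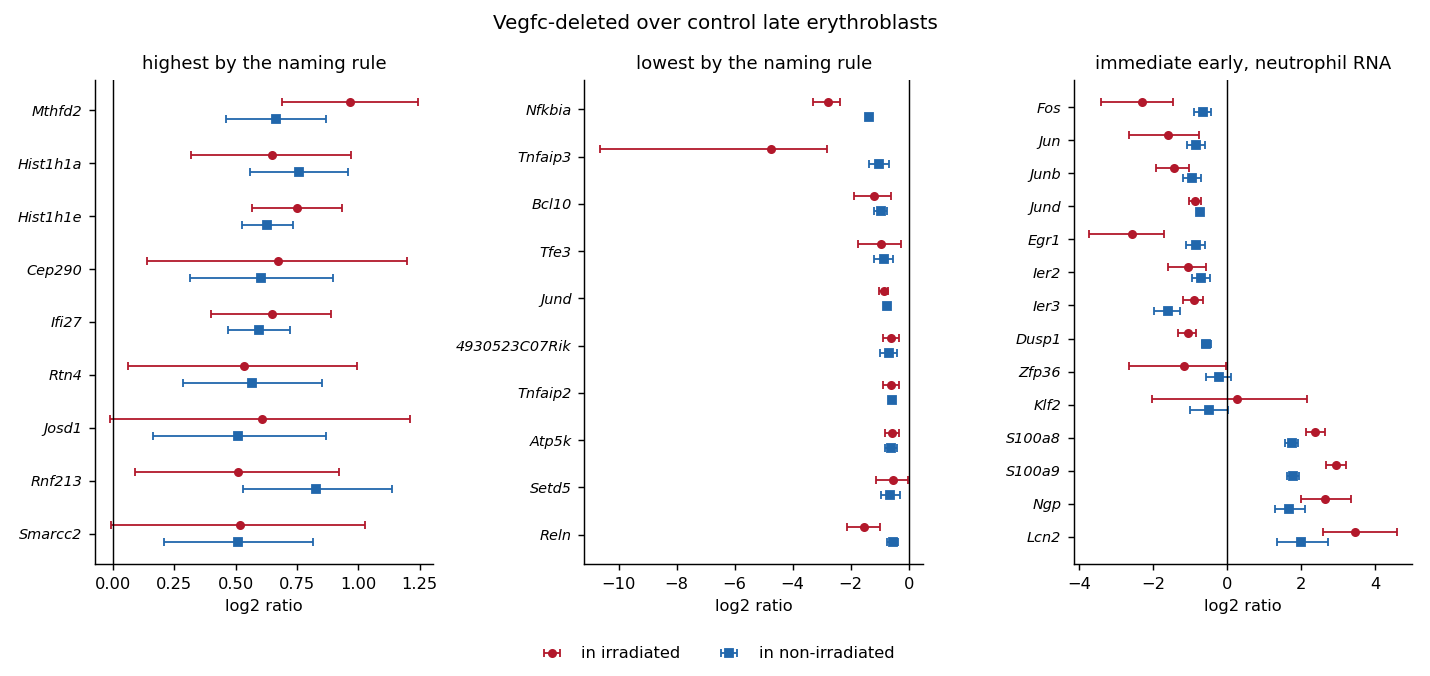
Log2 ratio of Vegfc-deleted over control members for 9 of the 10 highest genes, the 10 lowest and 14 listed immediate early and neutrophil genes, with and without irradiation, with exact 95% intervals for counting error and 1 library per group. Nfkbia is first of the lowest (-2.79 and -1.37) and Mthfd2 first of the highest (0.97 and 0.66), and the intervals after irradiation are the wider ones.

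RNA of other cell types moved with genotype in the members. The 8 neutrophil markers summed to 1628 CPM in irradiated Vegfc-deleted and 256 CPM in irradiated control members and to 1183 CPM in non-irradiated Vegfc-deleted and 347 CPM in non-irradiated control members. Of these markers 6 of 6 with enough UMIs were higher in Vegfc-deleted members after irradiation and 8 of 8 without it, beside 9.04% and 6.77% of all genes. In the other barcodes the sums were 127800 and 24325 CPM after irradiation and 41427 and 18336 CPM without it, Vegfc-deleted before control in each pair. S100a8, a calcium-binding protein gene that neutrophils express strongly, was in 45.3% and 12.3% of thinned members after irradiation (Vegfc-deleted, control), against 55.0% and 11.3% of non-erythroid cells. Markers of the B lineage summed to 20.6, 53.1, 49.5 and 69.3 CPM, those of T and NK cells to 12.9, 5.83, 11.9 and 2.96 CPM and those of basophils and mast cells to 7.73, 10.4, 4.29 and 43.4 CPM, in the order of the 4 libraries used throughout. Of the T and NK list Cd3e and Klrd1 were at 0 in all 4 libraries.

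Stromal and bone markers followed other lines. The LepR+ stromal list summed to 88.9 CPM in irradiated Vegfc-deleted, 174 CPM in irradiated control, 229 CPM in non-irradiated Vegfc-deleted and 426 CPM in non-irradiated control members, with Kitl at 0 in irradiated Vegfc-deleted members. The osteolineage list summed to 164, 334, 138 and 137 CPM in that order, led in the irradiated control library by Col1a1 at 234 CPM, against 106, 41.9 and 6.57 CPM in the irradiated Vegfc-deleted, non-irradiated Vegfc-deleted and non-irradiated control libraries. The megakaryocyte list summed to 70.8, 117, 214 and 181 CPM, the plasma cell list to 142, 116, 44.6 and 53.6 CPM, the monocyte and macrophage list to 112, 24.6, 69.7 and 29.9 CPM and the sinusoidal endothelial list to 21.9, 55.7, 15.2 and 18.1 CPM, all in the order irradiated Vegfc-deleted, irradiated control, non-irradiated Vegfc-deleted, non-irradiated control. The part that such RNA has in the gene differences above was not tested.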

How the data were processed

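Single-cell 3′ RNA libraries (10x, version 3.1 chemistry) were sequenced from 4 pools of sorted marrow cells, 1 per group. The authors deposited raw UMI counts per gene and barcode, made with Cell Ranger 2.1.1 on mm10 per the submitters' processing notes, whereas the file headers name software version 3.1.0. For the annotation release, it is not stated in the sources used here. Of 31053 features, 30934 (99.62%) matched GENCODE vM21 by ID. All value columns were used.

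Members were taken by the filters given in the report, and they and the 16 gene and 10 marker lists were chosen with earlier results of these data known. Counts were summed over members per library and scaled to 1000000 UMIs outside the 4 adult globin genes. Log2 ratios used a prior of 0.5 counts, with exact conditional 95% intervals, and shares exact Clopper-Pearson intervals. Both cover counting error only. A list's median is over genes with at least 10 summed UMIs. The limit for a count of 0 is 3 counts. With 1 library per group no test was made. Named genes had at least 50 CPM, 30 UMIs and 10 member cells in the higher library, and there at least 0.5 times the level of the other barcodes. They were ranked by whichever of both comparisons of a kind had the ratio nearer 0, and the top 10 in each direction were named, and 8 each way against cells of 10 to under 40% globin. Xist, Y-linked and mitochondrial genes were left out. Other genes are members of the lists. Some genes of the rule and the lists are not reported here. Doublets were not removed, and Scrublet at 0.8% per 1000 barcodes was an alternative, as were edgeR's TMM factors, other thresholds, thinning to 1000 UMIs and globin bands. Ratios were tested on simulated data. Promoters are RefSeq's. Software was Python 3.11.15, numpy 2.4.6, scipy 1.17.1, pandas 2.3.3, scanpy 1.11.5, biopython 1.88, matplotlib 3.10.9, R 4.3.3 and edgeR 4.0.16.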

Additional observations from a re-analysis of the deposited data

Results flagged for a closer look

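Some genes differed in opposite directions in the pair of comparisons of 1 kind, with both counting intervals away from 0, and these differences between comparisons were not tested. Isg15 had a log2 ratio of irradiated over non-irradiated members of 0.60 in Vegfc-deleted mice and -0.22 in controls. Xpo7 had -0.59 in Vegfc-deleted mice and 0.07 in controls. Trp53inp1, a p53 target, had -2.10 in Vegfc-deleted mice and 0.31 in controls, and its log2 ratio of Vegfc-deleted over control members was -2.07 after irradiation and 0.34 without it. It was at 34.8 CPM in irradiated Vegfc-deleted and 148 CPM in irradiated control members, and at 151 CPM in non-irradiated Vegfc-deleted and 120 CPM in non-irradiated control members, so the irradiated Vegfc-deleted library is the one that stood apart. Sod1 had a log2 ratio of Vegfc-deleted over control members of -0.62 after irradiation and 0.33 without it.

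Barcodes with at least 40% globin but fewer than 500 genes, which the members exclude, numbered 70 in the irradiated Vegfc-deleted, 55 in the irradiated control, 459 in the non-irradiated Vegfc-deleted and 358 in the non-irradiated control library. Whether they were more mature cells, reticulocytes or debris was not tested.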

How the results depend on the processing

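No paired analysis was possible because each group has 1 library. Equal weight to 4 globin bands, the Hbb ratio by band and leaving out barcodes found in another library were chosen after seeing the data. Of 36 values of the member share under alternatives 28 moved by less than counting error, of 104 counts of genes 78 stayed within 1.5 times, and of 768 list medians 744 and of 3278 gene ratios 2493 stayed the same. Where a value changed, the cause was not tested beyond what the setting itself changes. The log2 ratio of the member share with irradiation was -1.336 in Vegfc-deleted mice and -0.543 in controls with at least 1000 genes, and -1.248 in controls with at least 250. Among barcodes with 10% or more globin it was 0.449 and 0.509, and the ratio between genotypes was -0.004 after irradiation and 0.057 without it. Between genotypes without irradiation it was -0.236 with at least 1000 genes.

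Counts of higher genes with irradiation in Vegfc-deleted mice were 573 at 40 to under 60% globin, 536 with at least 1000 genes and 592 after thinning. In controls thinning gave 612 higher and 548 lower. Without a UMI minimum the counts were 3970 higher and 2598 lower in Vegfc-deleted mice and 4241 and 3981 in controls, and with at least 100 UMIs 390 and 673, and 425 and 501. Between genotypes after irradiation 239 were higher at 40 to under 60% globin and 227 with TMM factors. Thinning gave 144 higher and 235 lower, no minimum 3045 and 3528, and 100 UMIs 142 and 237. Without irradiation thinning gave 116 lower, no minimum 3037 higher and 2951 lower, and 100 UMIs 88 and 61.

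Reversals with irradiation in Vegfc-deleted mice, at 40 to under 60% globin and with at least 1000 genes, were the minor globin median (0.354 and 0.448), Bcl2l1 (0.383 and 0.446) and Hbq1a (1.373 and 0.448). Hbb-y was -1.601 at 40 to under 60% globin and -0.195 with equal band weights, and the progenitor median was 0.415 without the highest doublet scores. In controls, Bnip3l was 0.146 and 0.101 and Trim58 0.019 and 0.135 at those 2 settings, and Bpgm 0.534 with at least 1000 genes. Between genotypes after irradiation the progenitor median was -0.241 at 40 to under 60% globin, -0.013 with at least 1000 genes, -0.860 after thinning and -0.169 without a minimum, and Cep290 was -0.137 at 50% globin or more. The log2 ratio of Hbb-bs over Hbb-bt with irradiation was -0.477, -0.691, -0.621 and -0.510 in the bands from 40, 60, 70 and 80% globin in Vegfc-deleted mice, and -0.638, -0.744, -0.731, -0.643 and -0.611 in the bands from 40, 50, 60, 70 and 80% in controls.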

Other observations

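The interferon-induced gene Isg15 differed between globin bands. It was at 1007, 2447, 4339, 9670 and 5569 CPM in the bands from 40, 50, 60, 70 and 80% globin of the irradiated Vegfc-deleted library and at 579, 1437, 1846, 2865 and 1862 CPM in those of the irradiated control library. In the non-irradiated Vegfc-deleted library it was at 977, 1430, 2250, 4217 and 4183 CPM and in the non-irradiated control library at 854, 1087, 2482, 3395 and 2890 CPM. It was thus highest in cells of 70 to under 80% globin in all 4 libraries.

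Hbb-y, the embryonic beta-like globin, was at 96.6 CPM in irradiated Vegfc-deleted and 3.24 CPM in irradiated control members, and at 9.24 CPM in non-irradiated Vegfc-deleted and 0.986 CPM in non-irradiated control members. Of its 75 UMIs in the irradiated Vegfc-deleted library 70 came from 1 cell and the rest from 4 others.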
